A study of Homo sapiens with 8 samples.

Results

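The transcripts of 40 genes for heat shock proteins, the chaperonin of the cytosol and their co-chaperones were followed in MOLM13 cells, a human line established from acute myeloid leukemia. The 40 genes were taken by a list of symbols from a table of 35370 genes, and all 40 were among the 13030 genes with enough signal to be tested. Chaperones bind proteins that are unfolded or not yet folded and keep them from clumping. HSP70 proteins hold short hydrophobic stretches in cycles of ATP use, J-domain proteins bring clients to them, and nucleotide exchange factors release them, while HSP90 acts later on kinases, steroid receptors and other near-native clients. The ring-shaped chaperonin TRiC/CCT folds actin and tubulin inside its chamber, and the transcription factor HSF1 drives many of these genes when proteins misfold.

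There were 4 groups of 2 libraries each. Knockdown cells carried a short hairpin against IGF2BP2, which encodes a protein that binds N6-methyladenosine in RNA. Rescue cells were labelled as given IGF2BP2 back, mutant rescue cells as given a mutant of it, and control cells were labelled wild type. The protocol for all groups was infection with virus in polybrene, with puromycin if selection was needed, and then sequencing of polyadenylated RNA. The hairpin, the mutation, the clonality of the cells and any empty vector in the control or knockdown cells are not stated in the labels used here. Nothing in the labels makes the replicates separate cultures, so each p-value reflects library-to-library spread that could be purely technical.

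Values are log2 levels normalized by the authors across the 8 libraries. They are not per length, so they are compared between libraries for the same gene and never between genes. Read depth is unknown, and precision rests on 2 libraries per group. IGF2BP2 itself was at 10.24 and 10.25 in knockdown, 11.36 and 11.13 in rescue, 11.03 and 10.68 in mutant rescue, and 10.94 and 10.89 in control. Knockdown lay lowest without overlap, and knockdown minus control was -0.67 ± 0.13 (SE; limma adjusted p = 0.0147). All 11 myeloid marker genes examined were among the genes tested, while the 11 markers of erythroid, T, B, megakaryocyte, epithelial and fibroblast cells were not, with each of those cell types summing to under 1 ppm of the linear total of every library, that is, of the sum of all levels taken off the log scale. The mutant rescue libraries differed most from each other: over the genes tested, the differences between both libraries of a group had an SD of 0.303 in mutant rescue, 0.148 in knockdown, 0.232 in rescue and 0.212 in control. In bulk RNA, fewer cells of a kind and less RNA per cell cannot be told apart.

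The stretches of promoter shown here carry the letters of the heat shock element, the site bound by HSF1, because these genes are the classic targets of that factor. The motifs searched were GAANNTTC and TTCNNGAA, each of which reads the same on both strands, in RefSeq promoter windows (GRCh38.p14) from 250 bases before to 50 bases after the start of each transcript. Capitals mark the matches, and where both motifs overlap they share their middle unit. Each sequence is written 5′ to 3′ on the strand of its gene.
HSPA1A: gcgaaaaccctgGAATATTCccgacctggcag
HSPA1B: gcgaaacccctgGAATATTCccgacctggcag
HSP90AB1: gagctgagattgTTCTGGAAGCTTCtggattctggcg
HSPB1: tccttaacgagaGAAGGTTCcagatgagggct
DNAJB1: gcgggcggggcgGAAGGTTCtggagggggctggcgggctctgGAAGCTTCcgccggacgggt
DNAJB6: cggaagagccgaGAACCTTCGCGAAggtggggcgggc

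The HSPA1A stretch lies at chr6:31815425-31815456 and the HSPA1B stretch at chr6:31827621-31827652, both on the plus strand, with the match starting 106 and 105 bases before the start. The HSP90AB1 stretch, at chr6:44247819-44247855 on the plus strand, lies inside the annotated gene, outside its exons, 112 bases before its start. Those of HSPB1, at chr7:76302479-76302510, and DNAJB6, at chr7:157336861-157336897, are on the plus strand, 182 and 131 bases before the start. The DNAJB6 stretch also lies inside its annotated gene. The DNAJB1 stretch, at chr19:14518425-14518486 on the minus strand, holds matches of GAANNTTC at 77 and 47 bases before the start. It lies inside the annotated spans of DNAJB1 and TECR. Only stretches before the start that overlap no annotated exon (GENCODE v29) are shown. Matches in other genes are thus left out, among them overlapping motifs in windows of CHORDC1, HSPA8, HSPD1 and HSP90AA1. HSP90AB1 and DNAJB1 have further windows, and the most upstream window of each holds no match.

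Promoter windows were at hand for 35 of the 40 genes, in 49 windows, and not for HSPA14, FKBP4, ST13, HSF1 and CCT6A. At least 1 match was present in 19 of the 49 windows (38.8%), against 13.5% of all 35116 windows of the table. Both motifs overlapped in 7 of the 49 windows (14.3%), against 0.49% of all windows. By gene, 10 of the 16 genes called lower in knockdown that had a window held a match (62.5%), and so did 8 of the other 19 (42.1%), against 16.2% of all gene symbols in the table and 13.9% of those tested. Both motifs overlapped in 3 of those 16 genes (18.8%) and in 4 of the other 19 (21.1%), against 0.608% of all symbols and 0.499% of those tested. None of these shares was tested. A match says only that these letters are present, and no binding was measured here.

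Chaperone transcripts were lower after knockdown. In knockdown against control, 19 of the 40 genes fell and none rose at a limma adjusted p under 0.05, against a background of 7.44% called lower and 5.35% higher among all genes tested. The median difference over the 40 genes was -0.37 log2, against 0.01 over all genes tested. Of the 40 differences 37 were below 0, against 48.2% of all genes tested. The values of both groups did not overlap, with knockdown below, for 32 of the 40 genes, against 31.4% of all genes tested. DNAJB4 was the 1 gene of the 40 with knockdown above control without overlap, against 32.7% of all genes tested. By the authors' deposited table, at their adjusted p under 0.05, 25 of the 40 were lower and 1, again DNAJB4, was higher, against 13.4% and 6.72% of the genes tested here. All 19 genes called lower here are among those 25.

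**Figure D1:**
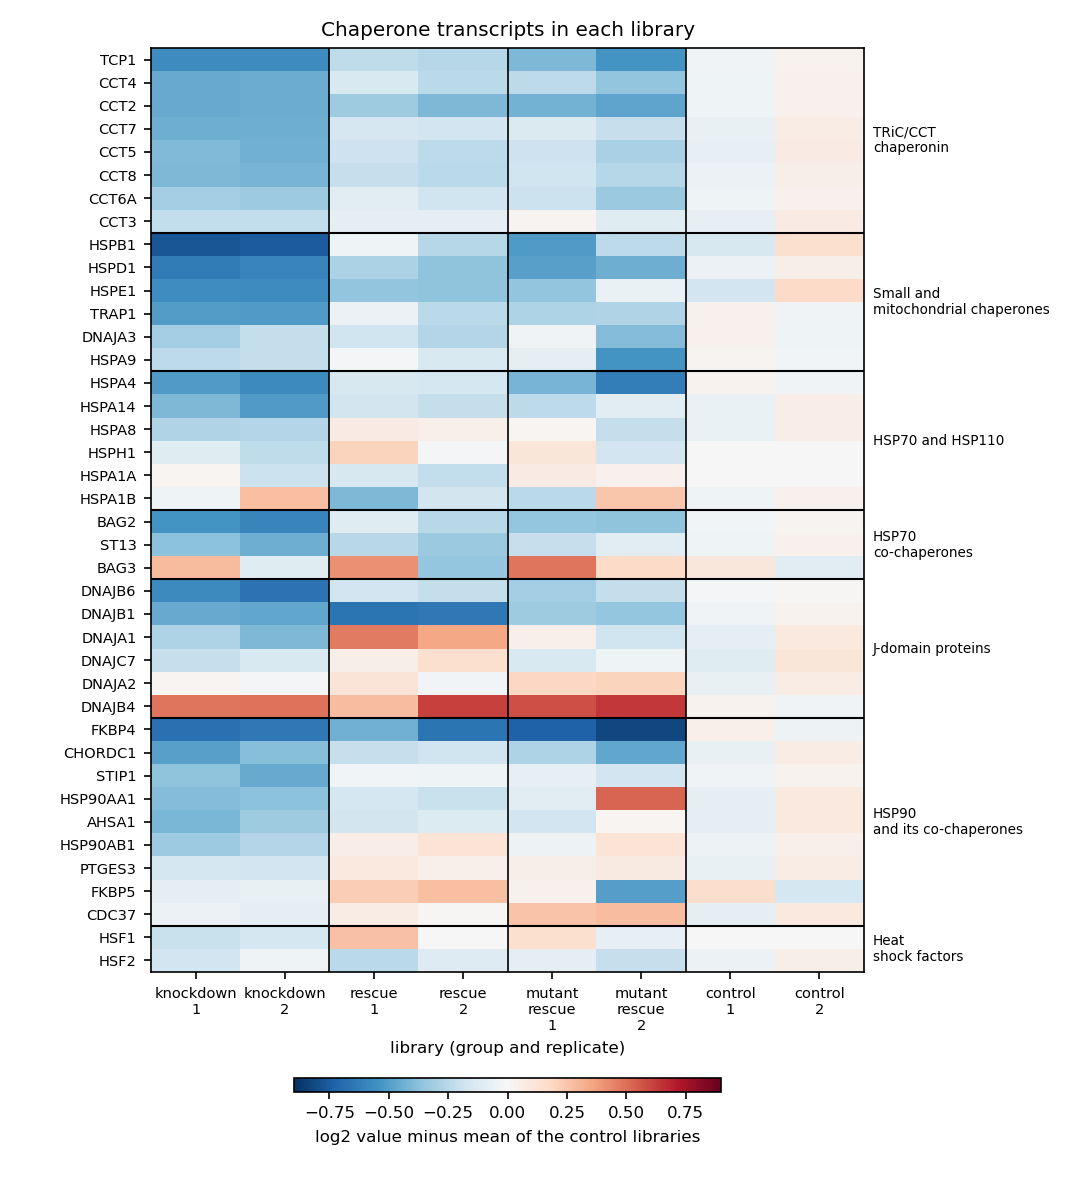
Log2 value of each of the 40 genes (rows, by subgroup) in each of the 8 libraries (columns), minus the mean of the control libraries of that gene. The knockdown columns are blue for most genes, the rescue and mutant rescue columns are paler, and DNAJB4 is red in all 6 libraries outside control.

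These calls rest on few libraries. The fits that leave out a knockdown or control library also called fewer genes lower over all genes tested, so the drop is not particular to the 40. Without knockdown replicate 1, and likewise without knockdown replicate 2, the count fell to 0 of the 40, the remaining knockdown library then being assumed to vary like the other groups. It was 6 without control replicate 2, and between 16 and 24 without any other single library. All 19 differences stayed below 0 over the 8 fits that leave out 1 library. Among them BAG2 had the narrowest range, -0.59 to -0.54, and HSPE1 the widest, -0.74 to -0.39, while HSPB1 ran between -0.90 and -0.61. Over all 40 genes, up to 3 differences changed sign when a knockdown or control library was left out, and 4 did under quantile normalization. The median over the 40 was -0.26 under quantile normalization, against -0.37 without it.

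Of the mitochondrial and small heat shock proteins, 4 of 6 fell, with a median of -0.53. HSPB1, the small heat shock protein HSP27, stood at 11.44 and 11.46 in knockdown, against 12.06 and 12.35 in control. Both knockdown libraries lay below both control libraries, and the difference was -0.76 ± 0.14 (SE; 95% interval -1.07 to -0.45), or 1.69-fold lower (limma adjusted p = 0.0111). HSPD1, the HSP60 chaperonin of the mitochondrial matrix, was at 12.53 and 12.56 in knockdown, against 13.10 and 13.20 in control. That is 1.53-fold lower in knockdown (-0.61 ± 0.09, limma adjusted p = 0.00498), with a gap between the groups far wider than the spread inside either one. HSPE1, the HSP10 lid that closes HSPD1, was at 11.45 and 11.44 in knockdown, against 11.83 and 12.18 in control (-0.56 ± 0.14, limma adjusted p = 0.0313), and the control libraries differed from each other more than for HSPD1. HSPD1 and HSPE1 are neighbours on opposite strands of chromosome 2, with annotated spans that overlap. Of the 31-base words of HSPE1 transcripts, 12.2% are also in HSPD1 transcripts, so their reads are not fully separable. HSPD1 shares 31.3% of its words with other genes, and 16.7% with the pseudogene HSPD1P1.

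TRAP1, the mitochondrial form of HSP90, was at 12.15 and 12.14 in knockdown, against 12.68 and 12.61 in control (-0.50 ± 0.10, limma adjusted p = 0.0131). Its neighbour DNASE1 shares 24.4% of the 31-base words of TRAP1 transcripts. The other mitochondrial members were lower without passing the test: HSPA9, the mitochondrial HSP70, differed by -0.23 ± 0.14 and DNAJA3, its J-domain partner, by -0.26 ± 0.12.

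The TRiC/CCT chaperonin fell in 6 of its 8 subunits, with a median of -0.43 and a range of -0.56 to -0.22. TCP1, the alpha subunit, was at 13.07 in both knockdown libraries, against 13.60 and 13.67 in control (-0.56 ± 0.09, limma adjusted p = 0.00811). CCT4, the delta subunit, was at 12.08 and 12.09 in knockdown, against 12.50 and 12.57 in control (-0.45 ± 0.09, limma adjusted p = 0.018). Knockdown libraries were almost identical to each other for these subunits, and no subunit overlapped between knockdown and control. The other subunits that fell were CCT2 (-0.45), CCT7 (-0.44), CCT5 (-0.41) and CCT8 (-0.41), while CCT6A (-0.32, limma adjusted p = 0.059) and CCT3 (-0.22, limma adjusted p = 0.176) did not pass. CCT5 shares 33.3% of its 31-base words with other genes, and CCT8 13.2%, all of them with the pseudogene CCT8P1.

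The 8 subunits moved alike across libraries. Their mean was 12.79 in both knockdown libraries, 13.02 and 12.97 in rescue, 12.98 and 12.88 in mutant rescue, and 13.15 and 13.25 in control. Over the 28 pairs of subunits, Pearson's r across the 8 libraries lay between 0.591 and 0.993, with a median of 0.914. These points share the libraries, their normalization and the difference between groups, so r is given as a description. Each subunit can also be set against the mean of all 8 in the same library. CCT5 kept the same distance from that mean to within 0.05 over the 8 libraries, whereas CCT3, the gamma subunit, ranged over 0.27, nearest to the mean in control and farthest above it in mutant rescue.

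**Figure D2:**
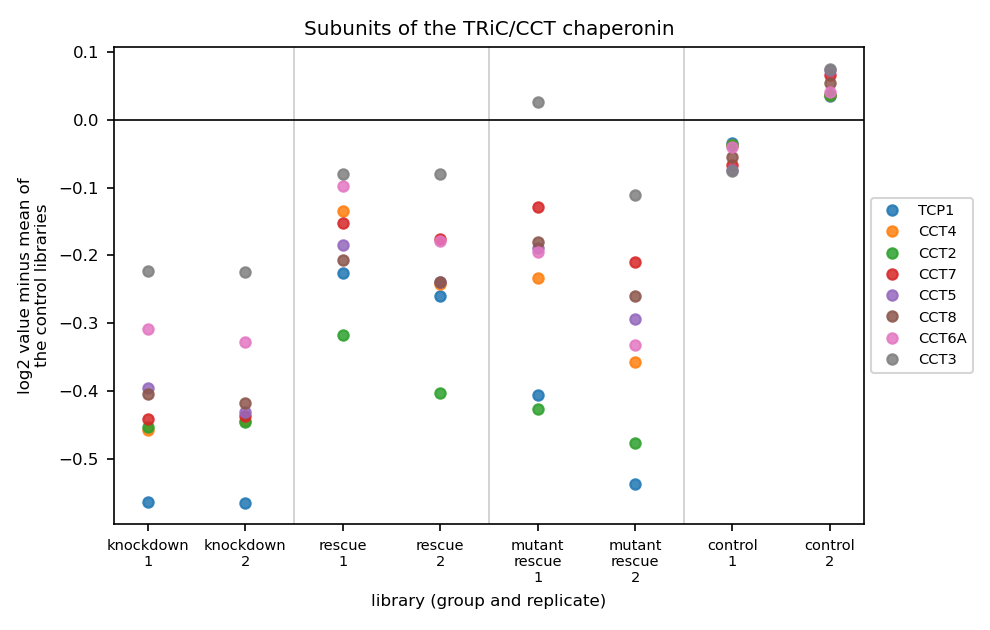
Log2 value of each of the 8 TRiC/CCT subunits in each of the 8 libraries, minus the mean of the control libraries of that subunit; each point is 1 library. All subunits lie under 0 in both knockdown libraries, TCP1 lowest and CCT3 highest, and mutant rescue 2 lies below mutant rescue 1 for every subunit.

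Among HSP70 and HSP110 proteins, 2 of 6 fell. HSPA4, an HSP110-type exchange factor for HSP70, was at 11.30 and 11.24 in knockdown, against 11.85 and 11.78 in control (-0.54 ± 0.10, 1.46-fold lower, limma adjusted p = 0.0108). HSPA14, an HSP70 that works with ribosomes, was at 10.11 and 10.01 in knockdown, against 10.46 and 10.58 in control (-0.46 ± 0.10, limma adjusted p = 0.0214). Knockdown and control did not overlap for either of them.

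HSPA8, the constitutive HSP70, was at 13.92 and 13.93 in knockdown, against 14.13 and 14.25 in control (-0.27 ± 0.11, limma adjusted p = 0.148), and HSPH1 differed by -0.17 ± 0.12. The stress-inducible HSPA1A and HSPA1B overlapped between knockdown and control, with differences of -0.09 ± 0.08 and 0.12 ± 0.19. Nearly identical in sequence, HSPA1A and HSPA1B share 73.6% of the words of HSPA1A and 73.1% of those of HSPA1B, so the split of reads between them is uncertain.

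Of the cytosolic and nuclear J-domain proteins, DNAJB6 and DNAJB1 fell. DNAJB6, which keeps aggregation-prone proteins soluble, was at 11.28 and 11.19 in knockdown, against 11.84 and 11.87 in control (-0.62 ± 0.09, 1.53-fold lower, limma adjusted p = 0.00446). DNAJB1, the main stress-inducible partner of HSP70, was at 11.72 and 11.71 in knockdown, against 12.15 and 12.22 in control (-0.46 ± 0.08, limma adjusted p = 0.0108). Replicates of these genes lay close together in both groups. DNAJA1, another HSP70 partner, was at 12.16 and 12.03 in knockdown, against 12.34 and 12.52 in control (-0.34 ± 0.11, limma adjusted p = 0.09), with the groups apart but short of the threshold.

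DNAJB4 went against the rest. It was at 7.64 and 7.65 in knockdown, against 7.19 and 7.13 in control, which is 0.49 ± 0.14 and just misses the threshold (limma adjusted p = 0.0503). DNAJA2 differed by 0.00 ± 0.10 and DNAJC7 by -0.17 ± 0.10.

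Among HSP90 and its co-chaperones 3 of 9 fell, with a median of -0.36. FKBP4, an immunophilin that joins HSP90 to steroid receptors, was at 9.62 and 9.65 in knockdown, against 10.34 and 10.25 in control (-0.66 ± 0.11, 1.58-fold lower, limma adjusted p = 0.00762). CHORDC1, a further HSP90 co-chaperone, was at 8.72 and 8.83 in knockdown, against 9.15 and 9.28 in control (-0.44 ± 0.11, limma adjusted p = 0.0387). STIP1, the adaptor that passes clients from HSP70 to HSP90, was at 11.99 and 11.91 in knockdown, against 12.32 and 12.39 in control (-0.41 ± 0.09, limma adjusted p = 0.0215).

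All 3 of these genes were apart between knockdown and control. FKBP5, the close relative of FKBP4, overlapped between the groups (-0.07 ± 0.17), as did CDC37, the co-chaperone for kinases (-0.07 ± 0.09). The HSP90 genes themselves were lower without passing: HSP90AA1 by -0.38 ± 0.18 and HSP90AB1 by -0.29 ± 0.10 (limma adjusted p = 0.2 and 0.101). AHSA1, which speeds the ATP cycle of HSP90, came close (-0.36 ± 0.10, limma adjusted p = 0.0544), and PTGES3, the p23 co-chaperone, differed by -0.16 ± 0.09.

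Of the HSP70 co-chaperones, BAG2 and ST13 fell. BAG2, an exchange factor for HSP70, was at 10.38 and 10.32 in knockdown, against 10.89 and 10.94 in control (-0.57 ± 0.09, limma adjusted p = 0.00722). ST13, also called HIP, which steadies HSP70 on its client, was at 11.21 and 11.14 in knockdown, against 11.54 and 11.62 in control (-0.40 ± 0.09, limma adjusted p = 0.0241). For both, the knockdown libraries lay below the control libraries. BAG2 shares 42.5% of its words with its neighbour RAB23, so part of its reads may not be its own. ST13 shares 32.9% of its words with other genes, and 13.1% with ST13P4.

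BAG3, the stress-induced member of the BAG family, overlapped between the groups, with 6.51 and 6.11 in knockdown and 6.33 and 6.12 in control (0.09 ± 0.25). The heat shock factors did not pass either: HSF1 differed by -0.18 ± 0.12, with knockdown below control in both libraries, and HSF2 by -0.11 ± 0.11 with overlap. Genes known as heat-inducible were thus found on both sides of the threshold: DNAJB1 and HSPB1 fell, while HSPA1B, BAG3 and HSPH1 were not called, with 95% intervals of -0.31 to 0.55, -0.48 to 0.65 and -0.45 to 0.11. HSPA1A was not called either, but its level is low, where the deposited values are drawn together, and the authors' deposited table gives it a log2 fold change of -0.52 at an adjusted p of 1, so no bound is given for it.

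**Figure D3:**
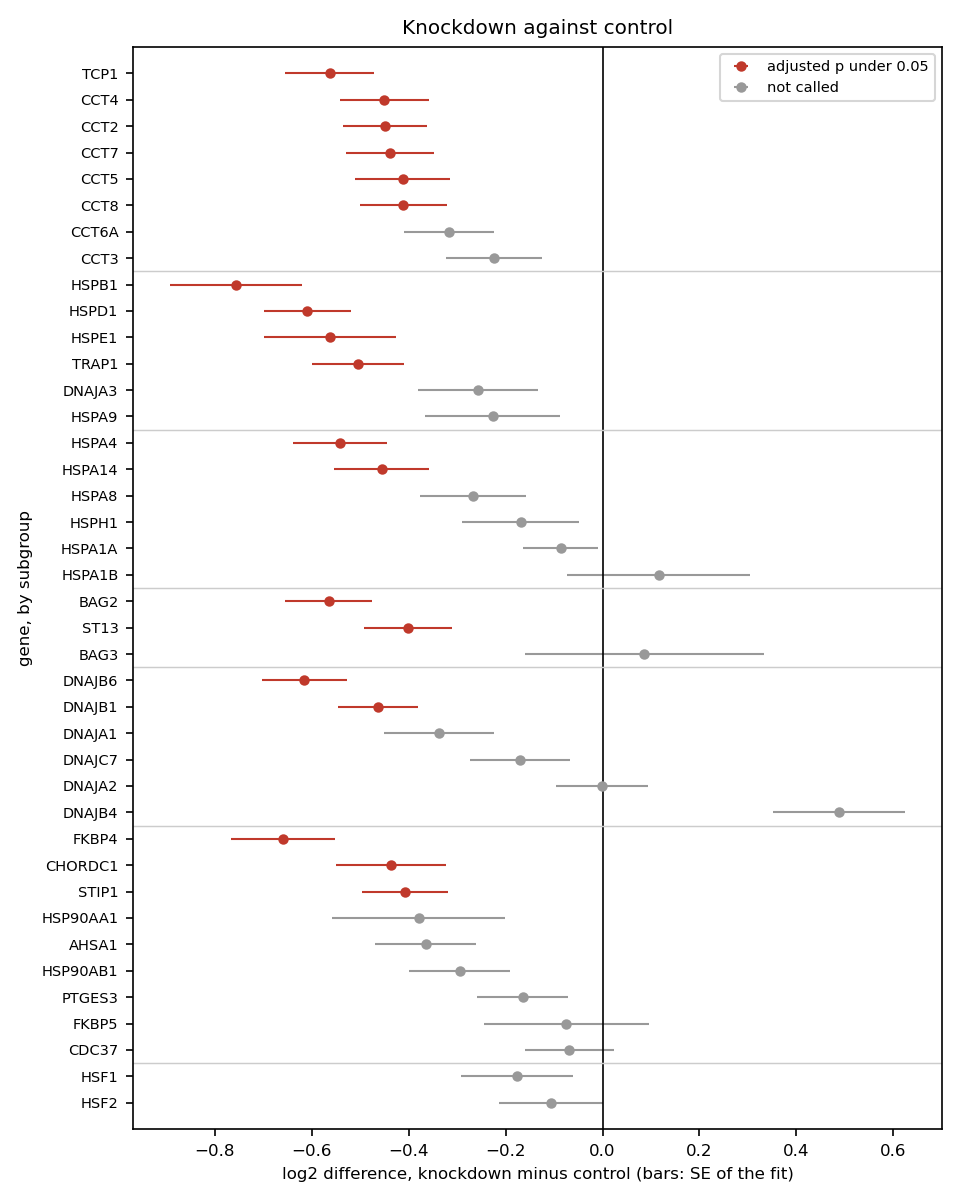
Log2 difference, knockdown minus control, of each of the 40 genes by subgroup, with bars of 1 SE of the fit; red points have a limma adjusted p under 0.05. The 19 red points all lie left of 0, between -0.76 for HSPB1 and -0.40 for ST13, and DNAJB4 is the farthest to the right at 0.49.

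Other transcripts moved in the same comparison. Of 8 S phase genes 6 fell, and of 8 G2/M genes 6 fell. The S phase genes summed to 1539 and 1550 ppm of the linear total in knockdown, against 2176 and 2069 ppm in control, and the G2/M genes to 1397 and 1419 ppm in knockdown, against 1929 and 1853 ppm in control. Of 81 ribosomal protein genes tested 8 fell, with a median of -0.29. The 11 myeloid marker genes summed to 11680 and 11240 ppm in knockdown, against 3748 and 4072 ppm in control, with 2 called higher and 1 lower. Their median difference was 0.19 log2. LYZ alone reached 23200 ppm in its highest library, while FLT3, the next, reached 836 ppm, so these sums mainly follow LYZ. Of 10 interferon response genes 3 rose, with a median of 0.32. The part of these shifts in the chaperone differences was not tested.

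Further chaperone genes outside the 40 were examined as lists. Of 29 other HSP70, HSP90 and J-domain genes and co-chaperones tested, 7 fell in knockdown and none rose, with a median of -0.18. They include NUDC, a co-chaperone of HSP90 (-0.62, limma adjusted p = 0.00758), DNAJC8, a J-domain protein of the spliceosome (-0.59, limma adjusted p = 0.00985), and DNAJC9, a J-domain histone chaperone (-0.54, limma adjusted p = 0.00653). Of 17 prefoldin genes, chaperonin helpers and tubulin cofactors, VBP1, a prefoldin subunit, fell alone (-0.49, limma adjusted p = 0.0221). Of 14 genes for folding and quality control in mitochondria, DNAJC19, of the inner membrane import motor, fell alone (-0.57, limma adjusted p = 0.0126).

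Rescue brought few chaperone genes above knockdown at the threshold. In rescue against knockdown, 3 of the 40 genes rose and none fell by limma adjusted p, against a background of 3.22% called higher and 1.02% lower. The median difference over the 40 was 0.23, against 0.00 over all genes tested. Of the 40 differences 34 were above 0, against 51% of all genes tested. Both rescue libraries lay above both knockdown libraries for 31 of the 40 genes, against 31.3% of all genes tested. They lay below for 2, against 26.9%. At the adjusted p of the authors' deposited table, 13 of the 40 were higher, against 7.04% of the genes tested here, and the 3 called here are among them. This comparison and the one with control share the knockdown libraries, so gains here and losses there are not independent of each other.

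DNAJA1 rose most, to 12.90 and 12.78 in rescue, against 12.16 and 12.03 in knockdown (0.75 ± 0.11, 1.68-fold higher, limma adjusted p = 0.00829). HSPB1 rose to 12.17 and 11.95 in rescue, against 11.44 and 11.46 in knockdown (0.61 ± 0.14, limma adjusted p = 0.045). DNAJB6 rose to 11.68 and 11.64 in rescue, against 11.28 and 11.19 in knockdown (0.42 ± 0.09, limma adjusted p = 0.0335). In each case both rescue libraries lay above both knockdown libraries. The DNAJA1 libraries in rescue also lay above both control libraries. Without knockdown replicate 1, knockdown replicate 2 or rescue replicate 1 none of the 40 genes was called higher, and without rescue replicate 2 DNAJA1 alone was. Over all genes tested, too, fewer were called higher in those fits. Without either mutant rescue library more were called higher, both of the 40 and of all genes tested.

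BAG2 (0.39 ± 0.09, limma adjusted p = 0.051), STIP1 (0.38 ± 0.09, limma adjusted p = 0.0516) and HSPA4 (0.39 ± 0.10, limma adjusted p = 0.064) came next without passing. The 8 TRiC/CCT subunits had differences of 0.09 to 0.32, all above 0 and none called. The 6 genes with differences below 0 were HSPA1B (-0.40 ± 0.19), DNAJB1 (-0.19 ± 0.08), HSPA1A (-0.10 ± 0.08), HSF2, BAG3 and DNAJB4. Under quantile normalization DNAJB1 was called lower in rescue than in knockdown (-0.34, limma adjusted p = 0.0489), DNAJA1 was the only one of the 3 genes still called higher, and the median over the 40 was 0.09.

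Interferon response genes stood far apart in the cells given a construct. The 10 listed genes summed to 7155 and 8120 ppm in rescue and to 1827 and 1805 ppm in mutant rescue, against 293 and 303 ppm in knockdown and 241.2 and 207.5 ppm in control. All 10 rose in rescue and in mutant rescue against knockdown. The myeloid markers summed to 8307 and 9535 ppm in rescue and to 16540 and 24170 ppm in mutant rescue, against 11680 and 11240 ppm in knockdown. These sums mainly follow LYZ. By gene, 2 of the 11 markers were called higher and none lower in each construct group against knockdown. Their median difference was 0.01 in rescue and 0.30 in mutant rescue. The part of these in the chaperone values against knockdown was not tested. Of the 8 S phase genes 4 rose in rescue against knockdown, and 0 rose in mutant rescue, where 1 fell. Of the further chaperone genes, only PFDN6, a prefoldin subunit, passed in rescue against knockdown, and it was lower in rescue (-0.84, limma adjusted p = 0.00749).

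In mutant rescue against knockdown 1 of the 40 genes, DNAJB6, rose and none fell, against a background of 5.58% called higher and 5.73% lower. DNAJB6 was at 11.55 and 11.64 in mutant rescue, against 11.28 and 11.19 in knockdown (0.36 ± 0.09, limma adjusted p = 0.0404), again without overlap. More of the 40 were called higher with mutant rescue replicate 1 left out, and so were more of all genes tested. The DNAJB6 call was lost without mutant rescue replicate 2, without either knockdown library and without either rescue library, with an adjusted p of up to 0.276, and under quantile normalization (0.15, limma adjusted p = 0.261). The median over the 40 genes was 0.18, against 0.05 over all genes tested. Of the 40 differences 34 were above 0, against 56.3% of all genes tested. But under quantile normalization the median was -0.01 and 16 of the 40 differences changed sign. Both mutant rescue libraries lay above both knockdown libraries for 28 of the 40 genes, against 37.1% of all genes tested. They lay below for 1, against 25.9%. The authors' deposited table called HSP90AA1 alone higher among the 40, against 4.37% of the genes tested.

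HSP90AA1, the inducible HSP90, was at 11.72 and 12.34 in mutant rescue, against 11.43 and 11.45 in knockdown. Mutant rescue replicate 2 was the highest of all 8 libraries for this gene, well above its partner, and the difference of 0.59 ± 0.18 was not called by limma (adjusted p = 0.0646). CDC37 was at 12.42 and 12.44 in mutant rescue, against 12.11 and 12.08 in knockdown (0.34 ± 0.09, limma adjusted p = 0.0505), just short of the threshold. Of the further chaperone genes, HSPA4L, a relative of HSPA4, fell (-0.79, limma adjusted p = 0.0317), as did DNAJB14, a J-domain protein of the endoplasmic reticulum membrane (-0.60, limma adjusted p = 0.0414), while DNAJC8 rose (0.39, limma adjusted p = 0.047). PFDN6 (-0.61, limma adjusted p = 0.0265) and SPG7, a mitochondrial protease subunit (-0.45, limma adjusted p = 0.0495), were lower as well.

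**Figure D4:**
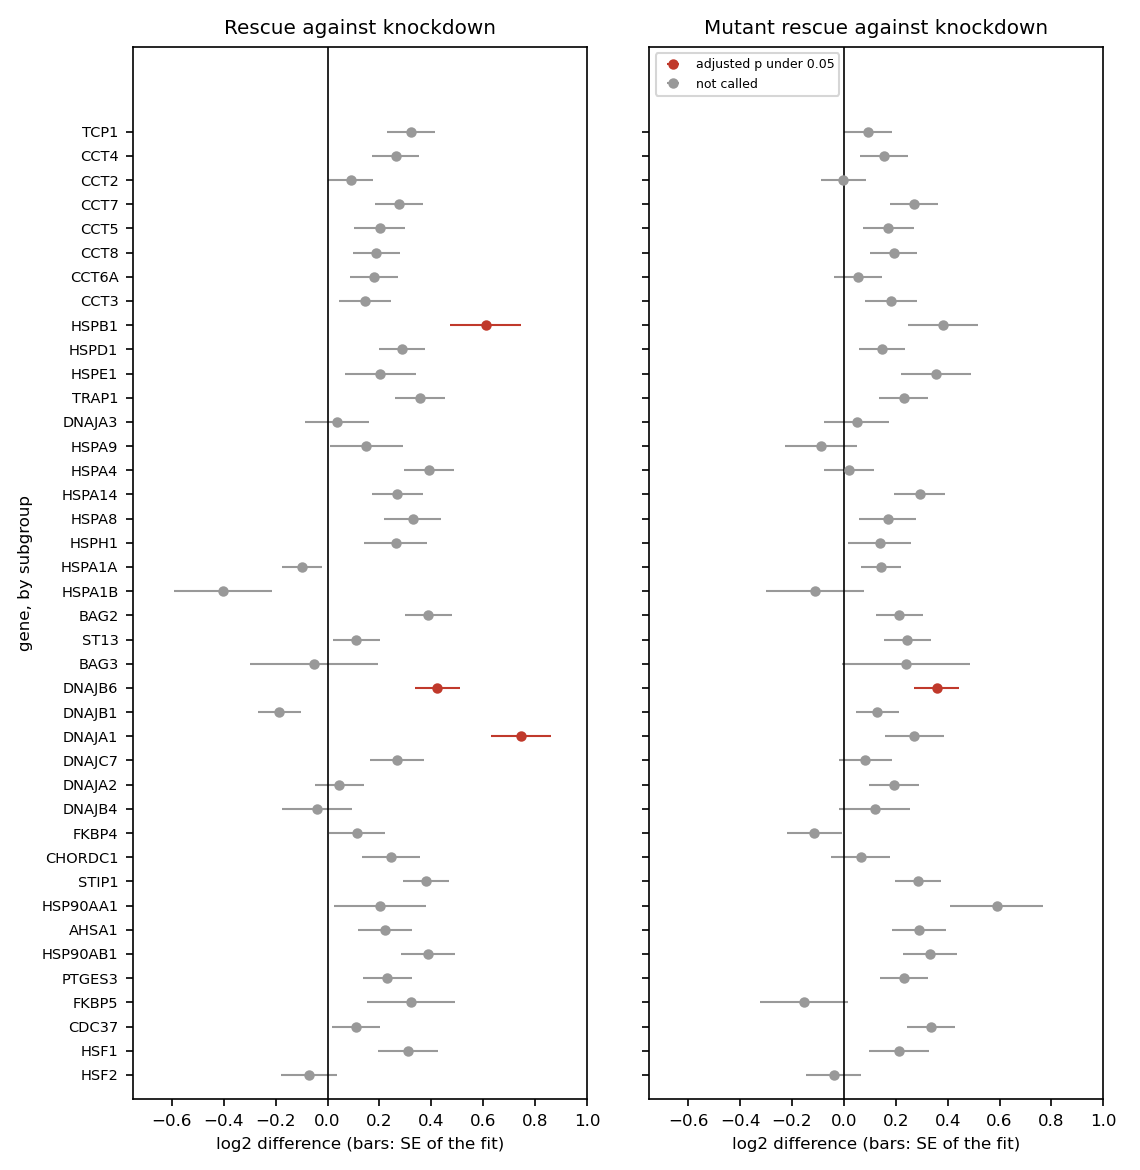
Log2 differences of the 40 genes, rescue minus knockdown on the left and mutant rescue minus knockdown on the right, with bars of 1 SE of the fit; red points have a limma adjusted p under 0.05. On the left DNAJA1 (0.75), HSPB1 (0.61) and DNAJB6 (0.42) are red, on the right DNAJB6 (0.36) alone.

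Set against each other, the constructs gave no more called chaperone genes than the background. In rescue against mutant rescue, 2 of the 40 genes were higher (5%) and 1 was lower (2.5%) by limma adjusted p, against a background of 5.9% called higher and 4.61% lower. The median over the 40 was 0.06, against -0.02 over all genes tested. This comparison sets the constructs against each other, and the levels of IGF2BP2 itself differed by 0.39 ± 0.13 between rescue and mutant rescue without passing (limma adjusted p = 0.0839).

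DNAJA1 was at 12.90 and 12.78 in rescue, against 12.47 and 12.26 in mutant rescue (0.47 ± 0.11, limma adjusted p = 0.036). HSPA4 was at 11.67 and 11.66 in rescue, against 11.39 and 11.19 in mutant rescue (0.37 ± 0.10, limma adjusted p = 0.0446). DNAJB1 went the other way, with 11.52 and 11.54 in rescue, against 11.86 and 11.83 in mutant rescue (-0.31 ± 0.08, limma adjusted p = 0.0463). The groups did not overlap for any of the 3. The DNAJB1 call was lost whichever of the 8 libraries was left out, with an adjusted p of 0.0502 to 0.18. The DNAJA1 call was lost without either knockdown library, either rescue library or mutant rescue replicate 2, with an adjusted p of up to 0.138, and the HSPA4 call without those or either control library, with an adjusted p of up to 0.178. None of the 3 passed by the authors' deposited table.

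Of the further chaperone genes, DNAJB14 (0.86, limma adjusted p = 0.0125), HSPA4L (0.77, limma adjusted p = 0.0309) and DNAJC9 (0.34, limma adjusted p = 0.0402) were higher in rescue than in mutant rescue. DNAJB2, a neuronal J-domain protein (-0.31, limma adjusted p = 0.0307), and HTRA2, a mitochondrial protease (-0.44, limma adjusted p = 0.0253), were lower in rescue. The DNAJB2 level is low, at 3.92 and 3.81 in rescue against 4.12 and 4.24 in mutant rescue, where the deposited values are drawn together. Thus HSPA4 and its relative HSPA4L both stood higher in rescue. All 10 interferon response genes were higher in rescue than in mutant rescue too, and 21 of 81 ribosomal protein genes were lower, with a median of -0.46. The part of these in the chaperone values was not tested.

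How far the construct groups stood from control was examined in further comparisons, added after the levels had been seen. In rescue against control, 3 of the 40 genes were lower and none higher, against a background of 2.27% called lower and 4.91% higher by limma adjusted p. Both rescue libraries lay below both control libraries for 25 of the 40 genes, against 26% of all genes tested. They lay above for 4, against 26.1%. DNAJB1 stood at 11.52 and 11.54 in rescue, against 12.15 and 12.22 in control (-0.65 ± 0.08, 1.57-fold lower, limma adjusted p = 0.00206). FKBP4 stood at 9.86 and 9.63 in rescue, against 10.34 and 10.25 in control (-0.55 ± 0.11, limma adjusted p = 0.019). CCT2, the beta subunit of TRiC/CCT, was at 12.62 and 12.54 in rescue, against 12.90 and 12.98 in control (-0.36 ± 0.09, limma adjusted p = 0.0443). By the authors' deposited table, DNAJB1 and FKBP4 were lower at their adjusted p under 0.05 and CCT2 did not pass. That is 2 of the 40 lower and none higher, against 2.77% and 5.33% of the genes tested.

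All 3 genes were below control in both rescue libraries. The DNAJB1 call held whichever library was left out, with an adjusted p of up to 0.0234. The FKBP4 call was lost without either knockdown library, either control library or rescue replicate 2, with an adjusted p of up to 0.147. The CCT2 call was lost when any one of the knockdown, rescue or control libraries was left out, with an adjusted p of up to 0.257. DNAJA1 in rescue differed from control by 0.41 without passing. In this comparison 10 of 10 interferon response genes and 3 of 11 myeloid markers were higher, while 27 of 81 ribosomal protein genes, 2 of 8 S phase genes and 3 of 8 G2/M genes were lower, and their part was not tested.

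In mutant rescue against control, 9 of the 40 genes were lower and 1 was higher, against a background of 11% called lower and 13.9% higher by limma adjusted p. FKBP4 was at 9.56 and 9.48 in mutant rescue, against 10.34 and 10.25 in control (-0.77 ± 0.11, 1.71-fold lower, limma adjusted p = 0.00187). HSPA4 was at 11.39 and 11.19 in mutant rescue, against 11.85 and 11.78 in control (-0.52 ± 0.10, limma adjusted p = 0.00667). The others that were lower were TCP1 (-0.47), HSPD1 (-0.46), CCT2 (-0.45), CHORDC1 (-0.37), BAG2 (-0.35), DNAJB1 (-0.34) and CCT4 (-0.30). By the authors' deposited table, 5 of the 40 were lower and 1 higher at their adjusted p under 0.05, against 5.7% and 11.1% of the genes tested. CHORDC1, BAG2, DNAJB1 and CCT4 did not pass there.

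DNAJB4 was at 7.73 and 7.79 in mutant rescue, against 7.19 and 7.13 in control, and was the gene called higher (0.61 ± 0.14, limma adjusted p = 0.0145). That call was lost without either control library, with an adjusted p of up to 0.0712. The lower calls of FKBP4, HSPA4, HSPD1, TCP1 and CCT2 held whichever library was left out, but in a fit on only the 2 groups compared HSPD1, TCP1 and CCT2 lost theirs (limma adjusted p = 0.0671, 0.0737 and 0.0684). The lower calls of DNAJB1, BAG2, CHORDC1 and CCT4 did not hold when single libraries were left out, with an adjusted p of up to 0.0709, 0.0851, 0.167 and 0.146. The count of the 40 called lower was larger without mutant rescue replicate 1 and smaller without any other single library. So was the count over all genes tested. Under quantile normalization 16 of the 40 and 1830 of all genes tested were lower, against 9 and 1431 without it. The median over the 40 was then -0.29, against -0.17 without quantile normalization.

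Other transcripts moved in mutant rescue against control as well. All 10 interferon response genes, 5 of 11 myeloid markers and 5 of 13 mitochondrially encoded genes were higher, and 7 of 8 S phase genes and 4 of 8 G2/M genes were lower. The myeloid markers summed to 16540 and 24170 ppm in mutant rescue, against 3748 and 4072 ppm in control. These sums mainly follow LYZ, and the median difference over the 11 markers was 0.34 log2. The S phase genes summed to 1401 and 1252 ppm in mutant rescue, against 2176 and 2069 ppm in control. The part of these in the chaperone values was not tested.

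Over the 4 groups, knockdown had the lowest mean for 30 of the 40 genes, against 25.6% of all genes tested, and control the highest for 25 of the 40, against 26.8%. The exceptions have their own orders. FKBP4 and CCT2 were lowest in mutant rescue, at means of 9.52 and 12.49. For FKBP4, rescue overlapped knockdown, mutant rescue lay just under knockdown with a difference of -0.11 that was not called, and control was above all of them. The CCT2 mean in knockdown was also 12.49. DNAJB1 was lowest in rescue (11.53), then knockdown (11.72), mutant rescue (11.85) and control (12.18), and no neighbouring groups overlapped.

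DNAJA1 was lowest in knockdown (12.09) and highest in rescue (12.84), while mutant rescue (12.36) and control (12.43) overlapped. DNAJB4 was lowest in control (7.16), and rescue overlapped both knockdown and mutant rescue. HSP90AA1 was lowest in knockdown (11.44), and mutant rescue (12.03) and control (11.82) overlapped.

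**Figure D5:**
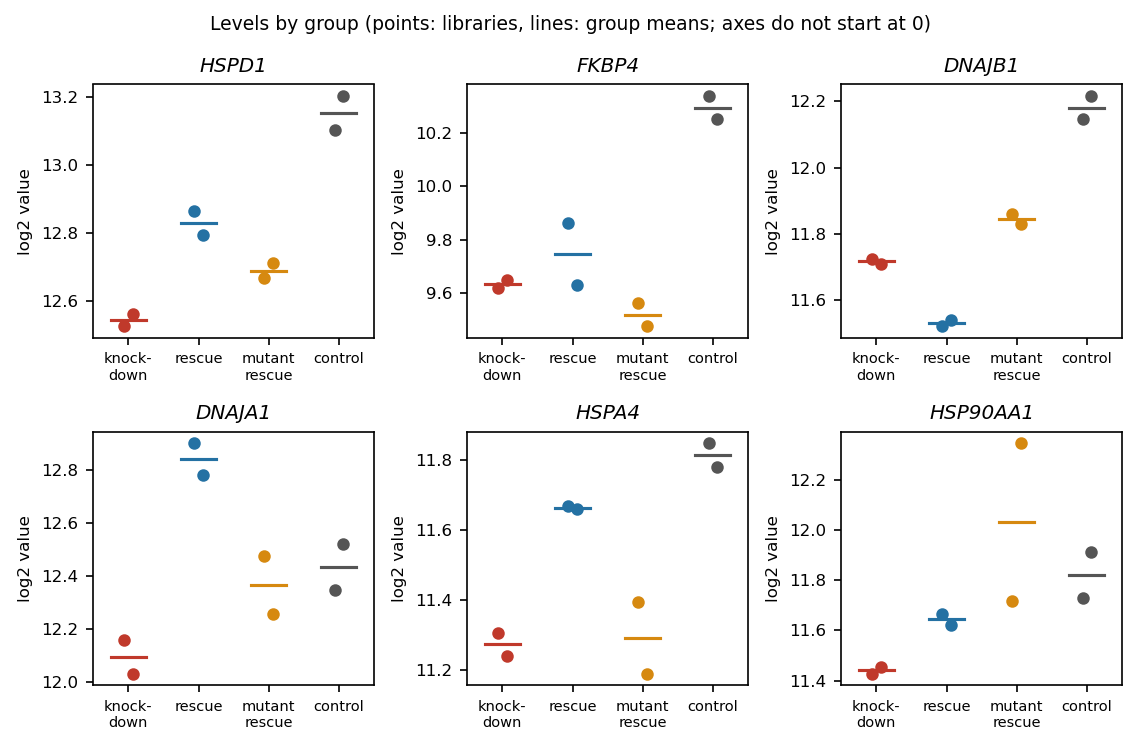
Log2 level of 6 genes in the 4 groups, with 1 point per library and a line at the group mean; the axes do not start at 0. HSPD1 is lowest in knockdown, FKBP4 is under control in every other group, DNAJB1 is lowest in rescue, DNAJA1 is highest in rescue, HSPA4 is low in knockdown and mutant rescue, and HSP90AA1 has 1 high mutant rescue library at 12.34.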

How the data were processed

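RNA sequencing libraries of MOLM13 cells were grouped by their titles into 4 groups of 2. Per the file headers, the authors wrote 1 table with the getDiffExpression.pl program of HOMER; the submitters' processing notes also name Trim Galore, kallisto and GRCh38, without versions. Each library column is deposited as log2 values, normalized by the authors over the whole series. Low genes are drawn together, which understates their changes. Genes at higher levels also differed less here than in the authors' fold changes. In knockdown against control, TCP1 was at -0.56 here and -0.71 there, and HSPB1 at -0.76 and -0.97. The same held for every gene called lower in that comparison, so the fold values given here are the smaller of both estimates. Fold changes and p-values of the authors, for each pair of groups, are deposited in the same table.

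On these values limma 3.58.1 (R 4.3.3) fitted 4 group means over all 8 libraries, with 4 residual degrees of freedom, empirical Bayes moderation and a mean trend. Genes that reached 1 ppm of the linear total in 2 or more libraries were tested (13030), two-sided, with Benjamini-Hochberg adjustment over all of them, and called at an adjusted p under 0.05. The procedure was tested on simulated data. Alternatives were a fit on only the 2 groups compared, a replicate block, quantile normalization, no filter, no mean trend, and leaving out each library. The 40 genes and the lists were chosen with earlier results of these data known. All 40 are accounted for; those called in any comparison are named with values, along with those nearest the threshold. Comparisons with control of either construct group were added after the levels had been seen. Transcripts of GENCODE v29 were cut into 31-base words to count those shared with other genes; that annotation may not be the one the authors used.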

Additional observations from a re-analysis of the deposited data

Results flagged for a closer look

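In 3 of the 40 genes the effects of the rescue and mutant rescue constructs against the same knockdown differed, as tested by the difference itself. DNAJA1 differed by 0.75 in rescue and 0.27 in mutant rescue against knockdown, and rescue minus mutant rescue was 0.47 (limma adjusted p = 0.036). HSPA4 differed by 0.39 in rescue and 0.02 in mutant rescue against knockdown, and rescue minus mutant rescue was 0.37 (limma adjusted p = 0.0446). DNAJB1 differed by -0.19 in rescue and 0.13 in mutant rescue against knockdown, and rescue minus mutant rescue was -0.31 (limma adjusted p = 0.0463). With 2 of 40 genes higher (5%) and 1 lower (2.5%), against 5.9% and 4.61% of the genes tested, the counts are no more than background. The DNAJB1 call was lost in each of the 8 fits that leave out 1 library and in each of the 5 other alternatives. The DNAJA1 call was lost in 5 and the HSPA4 call in 7 of those 8 fits. Both were also lost in the fit on only the 2 groups compared (limma adjusted p = 0.129 and 0.159). With no filter both were lost too (limma adjusted p = 0.0737 and 0.0904), and HSPA4 with no mean trend (limma adjusted p = 0.0531). Groups of 2 are too small for a test of single outlying libraries.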

How the results depend on the processing

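The alternatives were a fit on only the 2 groups compared, a replicate block, quantile normalization, no filter and no mean trend. For knockdown against control, the count called lower over all genes tested was 970, and 591 to 1440 in these alternatives. Among the 40 genes it was 19, and 16 to 22 in these alternatives. It ranged from 0 to 24 when each library was left out in turn, as the groups then left with 1 library are assumed to vary like the others. The count called higher was 1 on only the 2 groups, with the block and with no mean trend. Over all genes tested it was 1180, 786 and 709 in those fits. For rescue against knockdown, the count called higher was 13 on only the 2 groups, 1 under quantile normalization, 1 with no filter and 0 to 7 without single libraries, 7 of them without either mutant rescue library; 1 gene was called lower under quantile normalization. For mutant rescue against knockdown, the count called higher was 2 with the block, 0 on only the 2 groups, under quantile normalization and with no filter, and 0 to 6 without single libraries, 6 of them without mutant rescue replicate 1.

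For rescue against mutant rescue, the count called higher was 0 on only the 2 groups and with no filter, 1 with no mean trend, and 0 to 4 without single libraries; the count called lower was 0 in each of the 5 alternatives to the fit, and 0 to 1 without single libraries. For rescue against control, the count called lower was 5 under quantile normalization and 1 to 4 without single libraries, and the count called higher 0 to 1. For mutant rescue against control, the count called lower was 2 on only the 2 groups, 16 under quantile normalization and 5 to 13 without single libraries, and the count called higher 0 to 2. HSP90AB1 in mutant rescue minus knockdown changed sign under quantile normalization (-0.0061). Against control, without mutant rescue replicate 2, HSP90AA1 changed sign (-0.11, with a range of -0.11 to 0.52 without single libraries), as did FKBP5 (0.037, with a range of -0.49 to 0.037). The causes were not tested. Nothing in the labels pairs same-numbered libraries, so the block was used only as an alternative. Deviations of same-numbered libraries correlated at 0.414 between knockdown and rescue. With mutant rescue they correlated at 0.19 for rescue and 0.193 for control, and the other pairs of groups lay between -0.0212 and 0.0701. A shared part of same-numbered libraries in some pairs of groups is thus not excluded. Depth is unknown, and with 2 libraries per group small differences cannot be resolved.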
